A study of Homo sapiens with 4 samples.

Results

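The genes described here were 43 named genes of chromosome 12, band p13, that lie around *ETV6* and *CDKN1B* between 7.3 and 15 Mb of the GRCh37 assembly. They were selected on earlier results of the same contrast, PC9OR against PC9, in which a running median of the log2 fold change along the chromosome was low, so their changes are given as a description with no test. They are 43 of the 16813 genes listed in at least 1 library. They were named as genes of a segment, and the question set was where a decrease along it starts and ends. The genes did not all decrease: *CDKN1B* was higher in PC9OR than in PC9 cells, *ETV6* was lower, and the other genes moved both ways. They are therefore called the listed 12p13 genes.

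RNA from PC9, a lung adenocarcinoma line with a mutated *EGFR* and the control here, was sequenced in 2 biological replicates, and so was RNA from PC9OR, its osimertinib-resistant derivative, 4 libraries in all. Osimertinib is an inhibitor of the EGFR kinase. PC9OR is a single resistant line, and both lines came from the same outside laboratory. Both have the genotype label WT and were grown in RPMI medium with 10% fetal bovine serum. The labels do not say whether the drug was present at harvest. The authors deposited an expected count (an estimated number of reads, not normalized), an FPKM value (scaled by transcript length and depth) and a transcript length for every gene with reads, and a gene absent from a library was given 0.

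Band 12p13 is known for a pair of genes that are often lost together in leukaemia. *ETV6* encodes an ETS-family transcriptional repressor, and *CDKN1B* encodes p27, an inhibitor of cyclin-dependent kinases that holds cells in G1 and is controlled both by transcription and by protein turnover. The same band carries the natural killer gene complex, a row of lectin-like receptor genes used mainly by lymphocytes, and a cluster of *TAS2R* genes, the intronless genes of bitter taste receptors.

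The libraries held between 23201307 and 32203998 expected counts, and 3 counts corresponded to between 0.0936 and 0.128 CPM (counts scaled to the library size with edgeR's TMM factors). After the filter of edgeR on low counts, 13148 genes entered its quasi-likelihood test. Calls required a change of more than 2-fold with an adjusted p (Benjamini-Hochberg) under 0.05. The p-values measure the spread between the 2 labelled biological replicates of each line. By this rule 11.6% of the tested genes were lower and 6.13% were higher in PC9OR cells, and the median log2 fold change of all tested genes was 0.01. Of 10 epithelial markers 9 were listed, with a summed level of 5760 and 6658 CPM in PC9 and of 12398 and 12210 CPM in PC9OR. They did not move together: the keratins, which make up most of the sum, had log2 fold changes between 0.94 and 1.28, *EPCAM* lay between 319 and 343 CPM, and *CDH1* (-1.46) and *MUC1* (-2.65) were called lower. The lung lineage markers *NKX2-1* and *NAPSA* were at or near 0 and *SFTPB* was listed in no library. Of 11 lymphocyte and natural killer cell markers, 2 were listed, with a summed level of at most 0.0853 CPM, while *CD3E*, *NKG7*, *PRF1* and *MS4A1* were at 0. The 5 fibroblast and endothelial markers summed to 38.0 and 25.0 CPM in PC9 and to 5.71 and 6.32 CPM in PC9OR, most of it *CDH5*, and the part of this difference in the results below was not tested.

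Of the 43 listed genes, 33 passed the filter. A further 7 had at most 13 counts in any library and were not tested (*KLRG1*, *A2M*, *PRR4*, *GPRC5D*, *GSG1*, *GRIN2B* and *PLBD1*), and 3 were listed in no library (*CD69*, *KLRC2* and *GUCY2C*). Of the 33, 7 were lower in PC9OR (*FOXJ2*, *OLR1*, *YBX3*, *ETV6*, *BORCS5*, *DUSP16* and *GPRC5A*), beside 11.6% of all tested genes. *H2AJ* was the 1 gene called higher, beside 6.13% of all tested genes, and 25 were neither. The contrast also chose these genes, so nothing is read from these counts. The counts in the groups below stand beside the same shares and are read no further. The median log2 fold change of the 33 was 0.10, with 12 negative and 21 positive values between -4.27 and 1.81. Without PC9 replicate 1 the number called lower was 3, namely *OLR1*, *DUSP16* and *FOXJ2*, and with offsets for transcript length it was 5.

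The promoters of 4 genes that the values below turn on are shown first, ETV6 and DUSP16 from those that were lower and CDKN1B and H2AJ from those that were higher in PC9OR. Each is the 250 bases before the RefSeq gene start (RefSeq table of build GRCh38.p14, each window matched exactly to GRCh37), written 5′ to 3′ on the gene's strand. On GRCh37 they lie at chr12:11802358-11802607 (ETV6, plus strand), chr12:12715798-12716047 (DUSP16, minus strand), chr12:12870052-12870301 (CDKN1B, plus strand) and chr12:14927089-14927338 (H2AJ, plus strand). Capitals mark the CCAAT box, the GC box (searched as GGGCGG) and the TATA box (searched as TATAAA), each on either strand, and no marked match overlaps another.
ETV6: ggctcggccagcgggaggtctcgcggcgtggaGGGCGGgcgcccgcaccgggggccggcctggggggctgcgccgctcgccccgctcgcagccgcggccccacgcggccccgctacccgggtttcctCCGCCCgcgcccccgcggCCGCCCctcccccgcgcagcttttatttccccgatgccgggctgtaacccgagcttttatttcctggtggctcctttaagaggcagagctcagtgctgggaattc
DUSP16: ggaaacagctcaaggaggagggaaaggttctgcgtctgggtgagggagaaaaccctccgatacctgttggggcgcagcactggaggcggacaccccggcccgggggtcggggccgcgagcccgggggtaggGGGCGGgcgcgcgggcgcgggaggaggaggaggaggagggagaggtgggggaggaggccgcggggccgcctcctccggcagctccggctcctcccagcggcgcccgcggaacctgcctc
CDKN1B: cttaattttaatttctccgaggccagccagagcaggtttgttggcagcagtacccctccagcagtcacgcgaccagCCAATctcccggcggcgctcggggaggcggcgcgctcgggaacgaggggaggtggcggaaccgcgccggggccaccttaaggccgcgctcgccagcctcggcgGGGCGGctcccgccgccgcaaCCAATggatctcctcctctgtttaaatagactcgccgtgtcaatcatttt
H2AJ: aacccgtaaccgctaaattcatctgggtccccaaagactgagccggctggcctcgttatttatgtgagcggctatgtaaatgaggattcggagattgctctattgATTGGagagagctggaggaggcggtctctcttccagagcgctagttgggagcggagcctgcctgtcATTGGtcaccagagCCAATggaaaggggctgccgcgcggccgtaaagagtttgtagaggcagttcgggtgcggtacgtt
The windows of *ETV6* and *DUSP16* held 74.4% and 74.8% G or C, with 3 and 1 matches to the GC box and 0 to the CCAAT box. The *CDKN1B* window held 64.4% G or C, with 2 CCAAT matches and 1 GC box match, and the *H2AJ* window held 55.2%, with 3 CCAAT matches and 0 GC box matches. None of the 4 held TATAAA. Of 35116 promoter windows of the same length, 32% held the CCAAT box, 42.6% the GC box and 10.7% the TATA box. Promoters were found for 29 of the 43 listed genes, of which 10, 20 and 6 held these motifs in at least 1 window. These are counts of genes and the shares above are of windows, so they are not compared. A match is a description of the letters only.

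Both genes that give the region its name moved, in opposite directions. *ETV6* (chr12:11802608-12048311, plus strand) was at 99.2 and 58.0 CPM in PC9 and at 27.1 and 32 CPM in PC9OR. Both PC9OR libraries lay below both PC9 libraries, although the PC9 replicates differed from each other by more than the PC9OR replicates did. The means were 78.6 ± 29.1 and 29.5 ± 3.43 CPM (SD, n = 2), a log2 fold change of -1.41 with a standard error of 0.280, or 2.66-fold lower. In fits with each library left out the value ran from -1.77 to -0.98, and without PC9 replicate 1, at -0.98, *ETV6* no longer passed the 2-fold limit. In these bulk libraries fewer cells that express a gene and less RNA per cell cannot be told apart.

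*CDKN1B* (chr12:12838432-12875303, plus strand) was at 39.2 and 47.5 CPM in PC9 and at 78.5 and 82.1 CPM in PC9OR. The libraries of the lines did not overlap, and here PC9OR was the higher line. The means were 43.3 ± 5.87 and 80.3 ± 2.51 CPM (SD, n = 2), a log2 fold change of 0.89 with a standard error of 0.138, or 1.85-fold higher, which is under the 2-fold limit. With each library left out it stayed positive, from 0.75 to 1.02, and it was called higher without PC9 replicate 2, at 1.02. With offsets for length it was 0.88. Its annotated GENCODE span overlaps that of *GPR19* on the other strand. The promoter window before its RefSeq start ends at 12870301, past the end of the *GPR19* span at 12849141. *GPR19*, an orphan receptor gene, was at 1.15 and 1.46 CPM in PC9 and at 1.81 and 2.56 CPM in PC9OR, a log2 fold change of 0.74 with a standard error of 0.379. The kit marked strand, but the strand setting of the counting is not given in the sources used here. Reads of genes whose counted transcripts overlap may therefore be shared between them, which was not tested.

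Of the 7 genes of cell cycle, transcription and chromatin, 2 were called lower (*ETV6* and *FOXJ2*) and 1 higher (*H2AJ*), with a median log2 fold change of 0.20. *FOXJ2*, which encodes a forkhead transcription factor, was at 53.0 and 38.3 CPM in PC9 and at 18.4 and 17.0 CPM in PC9OR, a log2 fold change of -1.37 with a standard error of 0.191. *H2AJ*, which encodes the histone variant H2A.J, was at 21.5 and 29.9 CPM in PC9 and at 52.6 and 57.5 CPM in PC9OR. Its log2 fold change was 1.10 with a standard error of 0.187, and it was 0.87, under the limit, without PC9 replicate 1. Neither gene's libraries overlapped between the lines. *ATF7IP*, the partner of the histone methyltransferase SETDB1, was at 121 and 82.0 CPM in PC9 and at 52.0 and 51.4 CPM in PC9OR, and its value of -0.97 was just short of the limit, which it passed without PC9 replicate 2, at -1.24. The Polycomb gene *PHC1* and the bZIP gene *CREBL2* had values of 0.20 and 0.39, and *PHC1* overlapped between the lines in its libraries.

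Among the 9 genes of signalling and receptors, 6 were tested, 2 were called lower and 0 higher. *DUSP16*, which encodes a phosphatase of the JNK and p38 MAP kinases, was at 52.9 and 41.2 CPM in PC9 and at 13.7 and 16.3 CPM in PC9OR. The 2 lines stood well apart, with means of 47.0 ± 8.28 and 15 ± 1.85 CPM (SD, n = 2), a log2 fold change of -1.65 with a standard error of 0.182, or 3.13-fold lower. It passed the limit with each library left out, between -1.83 and -1.46, and with length offsets, at -1.20. *GPRC5A*, a retinoic acid-induced orphan receptor gene of lung epithelium, was at 345 and 240 CPM in PC9 and at 134 and 127 CPM in PC9OR, a log2 fold change of -1.17 with a standard error of 0.196. Without PC9 replicate 1 it was -0.89 and under the limit. *LRP6*, the Wnt coreceptor, was at 107 and 86.8 CPM against 62.5 and 69.2 CPM, a value of -0.56 that became 0.19 with length offsets. *EMP1*, an epithelial membrane protein gene, was at 134 and 217 CPM in PC9 and at 163 and 190 CPM in PC9OR, so that the PC9OR values lay between the PC9 values. The pseudokinase gene *STYK1* had a log2 fold change of 0.84 with a standard error of 0.274, and it was called higher without PC9 replicate 1, at 1.14.

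The 6 genes of organelles and trafficking were all tested, and 1 was called lower. It was *BORCS5*, a subunit of the BORC complex that positions lysosomes, at 20.8 and 14.3 CPM in PC9 and at 8.37 and 7.69 CPM in PC9OR, a log2 fold change of -1.12 with a standard error of 0.236. The call was lost without PC9 replicate 1, at -0.84, and without PC9OR replicate 1 or 2, at -1.18 and -1.06, and with length offsets, at -0.68. The other 5 had log2 fold changes between 0.01 and 0.36. They were *CLSTN3* (a calsyntenin, 0.14), *PEX5* (the receptor for peroxisomal import, 0.27), *NECAP1* (an endocytosis adaptor, 0.10), *M6PR* (the cation-dependent mannose 6-phosphate receptor, 0.36) and *GABARAPL1* (an autophagy protein, 0.01). The annotated spans of *M6PR* and *PHC1* overlap, as do those of *APOLD1* and *DDX47*. So do those of *BCL2L14* and *LRP6*, and those of *OLR1* and the unlisted gene *TMEM52B*. Whether such pairs share reads was not tested.

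The 3 RNA-binding genes gave 1 lower call. *YBX3*, a cold-shock domain protein gene, was at 140 and 97.0 CPM in PC9 and at 59.5 and 57.6 CPM in PC9OR, with no overlap between the lines. Its log2 fold change of -1.02, with a standard error of 0.198, was at the limit, and the call was lost without PC9 replicate 1 (-0.74), without PC9OR replicate 1 (-1.04) and without PC9OR replicate 2 (-0.99). *MAGOHB*, a core protein of the exon junction complex, and *DDX47*, an RNA helicase, had positive values of 0.52 and 0.46.

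The lectin-like receptors of the natural killer gene complex were 6 listed genes, of which 3 were tested. *OLR1*, the receptor for oxidized low-density lipoprotein, had the most negative log2 fold change of the 33 tested genes. It was at 5.80 and 5.79 CPM in PC9 and at 0.219 and 0.375 CPM in PC9OR, or 136 and 167 counts against 7 and 12. The PC9OR libraries were far below PC9 and still above 3 counts. The log2 fold change was -4.27 with a standard error of 0.392, or 19.3-fold lower, and it ran from -4.69 to -3.93 with each library left out. *CLEC2D*, whose product is a ligand of a natural killer cell receptor, was at 12.3 and 7.97 CPM in PC9 and at 11.8 and 12.2 CPM in PC9OR, with overlap between the lines. *CLEC2B* was under 1 CPM in every library. The lymphocyte genes *CD69* and *KLRC2* were listed in no library, and *KLRG1* had at most 7 counts.

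The remaining 12 genes, 8 of them tested, gave 0 calls in either direction. *HEBP1*, a heme-binding protein gene, came nearest among those that were lower, at 31.5 and 26.3 CPM in PC9 and at 15.4 and 15.4 CPM in PC9OR, a log2 fold change of -0.91. It was called lower with length offsets, at -1.22, and without PC9 replicate 2, at -1.05. *RIMKLB*, which encodes a ligase of amino acids, was at 18.3 and 21.1 CPM in PC9 and at 34.4 and 31.3 CPM in PC9OR, a log2 fold change of 0.74, and at 1.04 with length offsets it was called higher. *BCL2L14*, a gene of the BCL2 family, had the most positive value, 1.81 with a standard error of 0.645, from 4 and 3 counts in PC9 and 19 and 12 in PC9OR. *PRH1*, a gene of salivary proline-rich protein, was at 1.79 and 0.693 CPM in PC9 and at 0.718 and 0.5 CPM in PC9OR, with overlap. *MANSC1*, *FAM234B*, *APOLD1* and *FAM90A1* had values between -0.06 and 0.25.

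**Figure D1:**
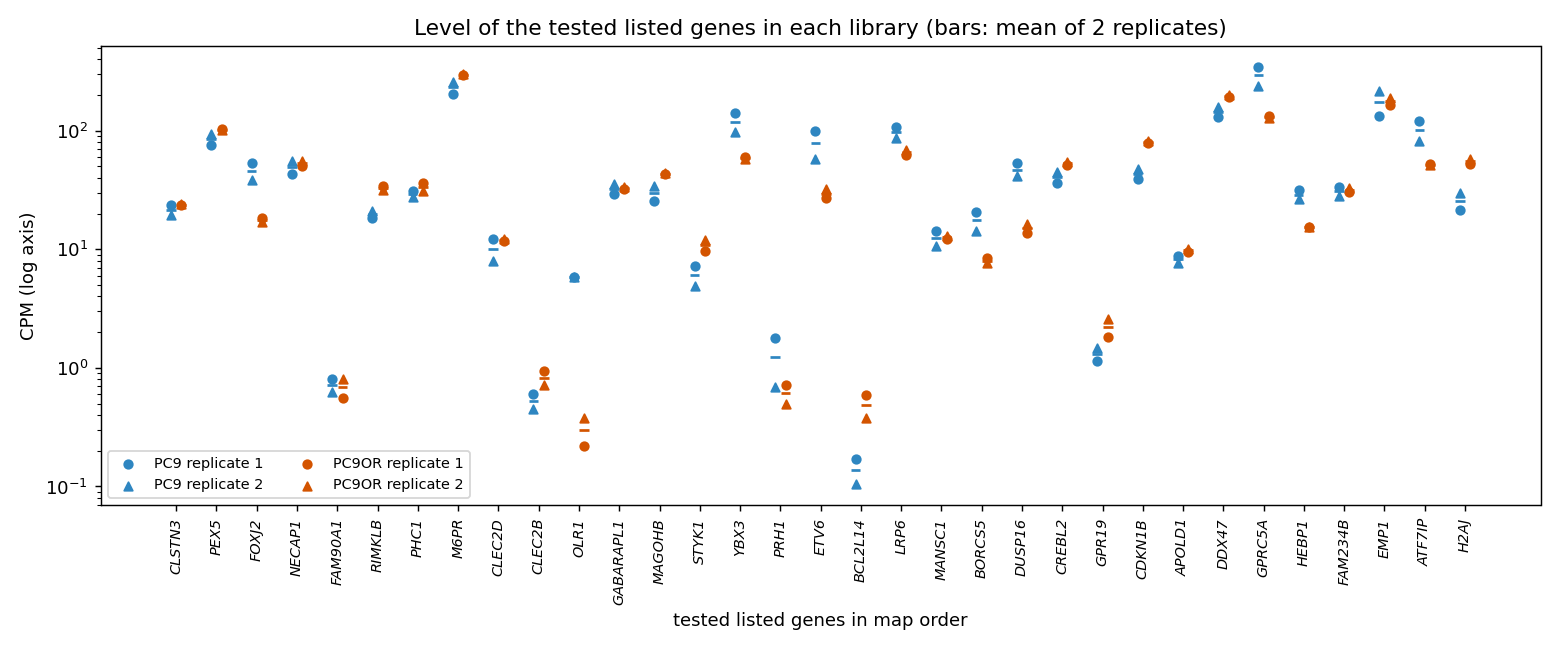
Level of the 33 tested listed 12p13 genes in each of the 4 libraries, in CPM on a log axis, with the genes in map order on the x axis (blue, PC9; orange, PC9OR; circles and triangles, replicates 1 and 2; bars, means of 2 replicates). PC9OR lies below PC9 for *OLR1*, *ETV6* and *DUSP16* and above it for *CDKN1B* and *H2AJ*, while the *EMP1* values overlap.

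Compared per transcript length, in FPKM, the order of levels also differed between the lines. In PC9 the highest mean levels were those of *GPRC5A* (74.9 FPKM), *M6PR* (66.2), *DDX47* (59.0), *YBX3* (47.2) and *EMP1* (45.5). The replicate ranges of neighbours in this order overlapped in FPKM at each step, so the order of neighbours was not beyond the spread. In PC9OR the highest were *M6PR* (82.8 FPKM), *DDX47* (79.7), *EMP1* (44.8) and *GPRC5A* (32.5), and here the replicate ranges of neighbours did not overlap. *ETV6* went from 9.36 to 3.41 FPKM, and *CDKN1B* from 12.6 to 22.9 FPKM. In PC9 libraries *ETV6* (11.9 and 6.80 FPKM) and *CDKN1B* (11.5 and 13.7 FPKM) overlapped, and in PC9OR libraries they did not (3.16 and 3.66 against 22.6 and 23.1 FPKM).

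The next question was where along the chromosome a decrease starts and ends. In map order the sign of the log2 fold change switched at 16 of the 32 steps between neighbouring tested listed genes. A step fit, which seeks the run of at least 5 neighbouring tested genes of the short arm whose values are best described by a median of their own, gave a run of 12 of 176 genes, from *TAS2R13* to *ETV6* (chr12:11060525-12048311). Its median was -1.64, against 0.10 for the other genes of the arm. Of the 12 genes 9 were *TAS2R* genes and 1, *ETV6*, was a listed gene. Just left of the run were *YBX3* (-1.02), *PRH1* (-1.01) and *TAS2R10* (0.07), and its first genes were *TAS2R13* (-2.30), *TAS2R14* (-1.83) and *TAS2R50* (-2.12). Its last genes were *SMIM10L1* (0.23), *LINC01252* (-2.10) and *ETV6* (-1.41), followed outside by *BCL2L14* (1.81), *LRP6* (-0.56) and *MANSC1* (0.01). The run thus held a gene without a decrease, and genes that were lower lay on both sides of it.

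**Figure D2:**
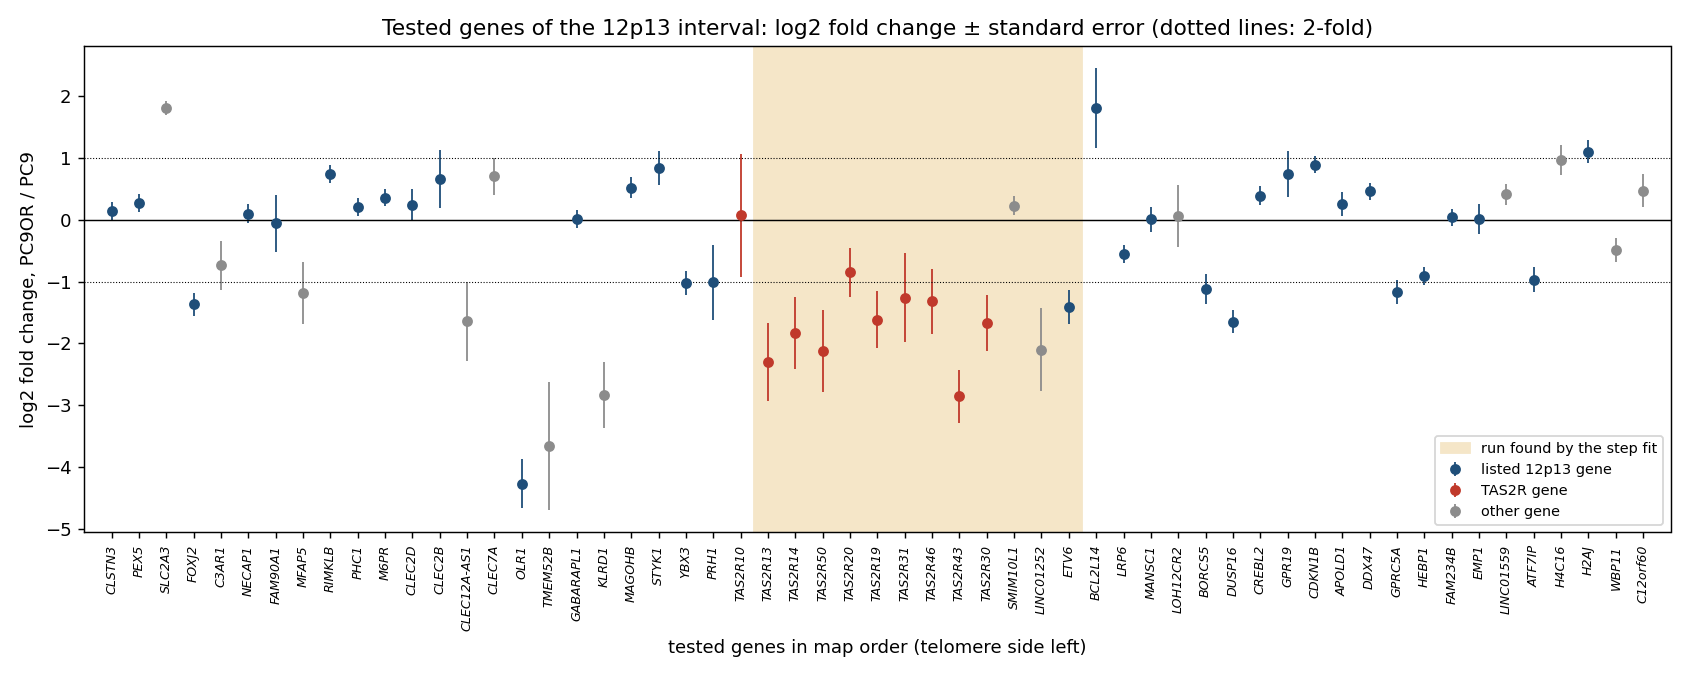
Log2 fold change (PC9OR over PC9) with its standard error for the 57 tested genes of the interval, in map order on the x axis, for listed genes (blue), *TAS2R* genes (red) and other genes (grey); the shading marks the run found by the step fit and the dotted lines 2-fold change. Blue points lie on both sides of 0 to the left and to the right of the shading, and 9 of the 10 red points lie below 0. *YBX3*, *PRH1* and *ETV6*, neighbours among the blue points at the shading, all lie below 0.

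The limits moved with the libraries and genes used, with length offsets, with the scale of the values and with the criterion of the fit. Without PC9OR replicate 1, and with offsets for length, the run held 21 genes, from *OLR1* to *ETV6*. Among genes with a mean of at least 1 FPKM it held 9 genes from *YBX3* to *DUSP16* (chr12:10851688-12715797), with a median of -1.12, and 6 of them were listed genes. Without the *TAS2R* genes, and by least squares, the best run was 5 genes from *WNT5B* to *DCP1B*, which lies outside the interval. A running median over 31 neighbouring tested genes is given as a description only, since a measure of this kind chose the interval. Its lowest value was -1.12, in the window from *CLEC2D* to *DUSP16* (chr12:9817565-12715797), which held 14 listed genes and all 10 tested *TAS2R* genes, and in which 20 of 31 values were negative. Without the *TAS2R* genes, and also among genes with a mean of at least 1 FPKM, the lowest running median of the arm was -0.05. These windows ran from *KDM5A* to *MRPL51* and from *KDM5A* to *ING4*, outside the interval, with 0 listed genes. With length offsets and without the *TAS2R* genes the lowest value was -0.11. That window ran from *EMG1* to *ETV6* and held 17 listed genes.

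The values at both ends of the interval were mixed in sign. Just inside the left end were *CLSTN3* (0.14), which starts at 7282294, and *PEX5* (0.27), and just outside it *C1RL* (-0.46) and *C1RL-AS1* (-1.34). Just inside the right end were *ATF7IP* (-0.97) and *H2AJ* (1.10), with the unlisted genes *H4C16* (0.97), *WBP11* (-0.49) and *C12orf60* (0.47) beside them, and just outside it *MGP* (-0.25) and *ERP27* (0.17).

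The *TAS2R* genes, which are not among the listed genes, had low counts. The 9 of the run summed to 17.4 and 11.6 CPM in PC9 and to 4.56 and 4.66 CPM in PC9OR, or 407 and 336 counts against 147 and 150. The sums of the lines did not overlap, and the highest FPKM of any of the 9 genes in any library was 2.09. The 10 tested *TAS2R* genes had a median log2 fold change of -1.64, with 9 negative values. Beside 11.6% of all tested genes, 4 of the 10 were called lower: *TAS2R13*, *TAS2R19*, *TAS2R43* and *TAS2R30*. All 10 lie in the interval, which was chosen on this contrast, so nothing is read from this count. Without PC9 replicate 1 only *TAS2R43* of the 4 was called, and without PC9OR replicate 1 or 2 none of the 4 was, with log2 fold changes that ran from -3.15 to -1.76 for *TAS2R13*, from -2.12 to -1.23 for *TAS2R19*, from -3.04 to -2.68 for *TAS2R43* and from -2.01 to -1.27 for *TAS2R30* over the libraries left out. With length offsets 6 of the 10 were called lower and the median was -2.05. All 10 lie on the minus strand inside the span of the listed gene *PRH1* (chr12:10977559-11324207, minus strand), and 0 of them overlap a *PRH1* exon in the annotation. Reads from unspliced *PRH1* RNA and from a *TAS2R* gene cannot be told apart by position there. The readthrough transcript *PRH1-TAS2R14* was listed on its own, at 1.36 and 1.39 CPM in PC9 and at 0.812 and 1.13 CPM in PC9OR.

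Some of these receptors are closely alike in sequence, so some of their reads may be assigned to the wrong copy. The 100-base words of each coding sequence were sought as exact matches in GENCODE transcripts of other genes. Found there were 3.86% for *TAS2R31*, 2.78% for *TAS2R43* and 1.09% for *TAS2R46*, and 0 for the other 7. A share of 0 does not show that no read was divided. The deposited expected counts of *TAS2R14* and *TAS2R30*, which had a share of 0, were not whole either, at 57.32 and 49.6 in PC9 replicate 1. *TAS2R31* and *TAS2R46* were 94.7% and 93.2% identical to *TAS2R43* over the coding sequence, against 58.3% for *TAS2R10*. Bases 276 to 375 of the 3 coding sequences are shown as a stretch where *TAS2R31* and *TAS2R46* each differ from *TAS2R43* at only 2 bases. They lie on the minus strand of GRCh37 at chr12:11244454-11244553 (TAS2R43), chr12:11183560-11183659 (TAS2R31) and chr12:11214519-11214618 (TAS2R46), are written 5′ to 3′ on that strand, and capitals mark the 2 bases that differ from TAS2R43.
TAS2R43: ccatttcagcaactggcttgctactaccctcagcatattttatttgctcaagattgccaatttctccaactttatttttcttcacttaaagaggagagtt
TAS2R31: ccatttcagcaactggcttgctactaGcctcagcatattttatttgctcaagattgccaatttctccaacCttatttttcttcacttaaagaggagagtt
TAS2R46: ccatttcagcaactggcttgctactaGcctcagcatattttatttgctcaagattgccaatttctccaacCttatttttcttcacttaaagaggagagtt
Over this stretch *TAS2R31* and *TAS2R46* are the same as each other. *TAS2R43* was at 1.83 and 1.84 CPM in PC9 and at 0.219 and 0.281 CPM in PC9OR, *TAS2R31* at 1.54 and 0.589 against 0.250 and 0.625 CPM, and *TAS2R46* at 1.58 and 0.936 against 0.624 and 0.375 CPM. The lines overlapped for *TAS2R31* but not for the other copies.

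Of the other tested genes of the interval without *TAS2R* genes, 14 in number, 2 were called lower and 1 higher. Among all tested genes these shares were 11.6% and 6.13%, and nothing is read from the counts. The called genes, chosen after their values were seen, were *KLRD1* at 1.19 and 0.867 CPM in PC9 against 0.156 and 0.125 CPM in PC9OR, *TMEM52B* at 0.384 and 1.66 against 0.0312 and 0.125 CPM, and *SLC2A3*, the glucose transporter GLUT3, at 19.2 and 18.2 against 65.1 and 65.7 CPM. The PC9 libraries of *TMEM52B* were uneven, its log2 fold change was -3.66 with a standard error of 1.04, and it ran from -4.85 to -2.99 with a library left out. The calls of *TMEM52B* and *KLRD1* were lost without PC9OR replicate 1 (-2.99 for either gene) or PC9OR replicate 2 (-4.85 and -2.68), while *SLC2A3* was called with each library left out. *KLRD1* encodes CD94, a partner of the receptor of the listed gene *KLRC2*. Over all 57 tested genes of the interval, the median log2 fold change was 0.01, with 28 negative and 29 positive values.

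Transcript length moved with these values. Across the 13148 tested genes, which are not independent replicates, the rank correlation of the log2 difference with length was -0.382 for PC9 replicate 2 minus replicate 1, -0.00636 for the PC9OR replicates, and -0.34 for PC9OR minus PC9. Over the 33 tested listed genes the last of these was -0.23, and 0.05 once smooth offsets for length were added to the fit. The 7 genes called lower had transcripts of 5482 bases in the median, and the 21 with a positive value of 2804 bases. With offsets, the median of the 33 was 0.32 (0.08 over all tested genes), 5 were called lower (*OLR1*, *YBX3*, *DUSP16*, *GPRC5A* and *HEBP1*) and 2 higher (*H2AJ* and *RIMKLB*), and 3 changed sign (*LRP6*, *GABARAPL1* and *MANSC1*). *ETV6* was then at -0.98, *FOXJ2* at -1 and *ATF7IP* at -0.36. Between PC9 replicates the 33 genes differed by -1.37 to 0.69 on the log2 scale, with a median of -0.26, and between PC9OR replicates by -0.66 to 0.78, with a median of 0.05. Change of isoform use altered the deposited mean length of a listed gene by at most 185 bases, for *ATF7IP*.

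**Figure D3:**
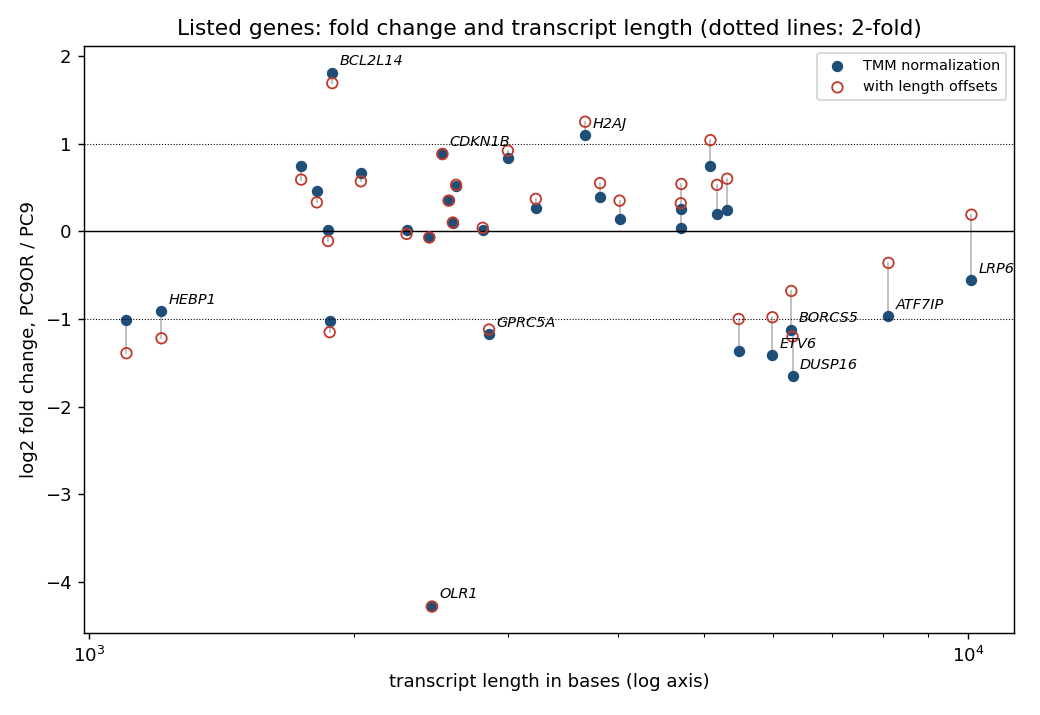
Log2 fold change (PC9OR over PC9) against transcript length in bases, on a log axis, for the 33 tested listed genes, with TMM normalization (filled points) and with offsets for length (open points) joined by a line; dotted lines mark 2-fold change. The long transcripts of *ETV6*, *DUSP16*, *BORCS5*, *ATF7IP* and *LRP6* move up with offsets, to -0.98, -1.20, -0.68, -0.36 and 0.19, while *OLR1* and *CDKN1B* hardly move.

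Genes elsewhere in the genome that are paralogues or complex partners of the listed genes were not used to choose them. Of 92 such genes 80 were tested, and by edgeR's quasi-likelihood test 9 were lower and 7 higher, beside 11.6% and 6.13% of all tested genes, with a median log2 fold change of 0.15. Without PC9OR replicate 1 the number higher was 1, without PC9OR replicate 2 it was 4, and without PC9 replicate 2 it was 12. The paralogues of p27 moved in both directions. *CDKN1A*, which encodes p21, was lower in both PC9OR libraries than in both PC9 libraries and fell from 45.6 ± 2.96 to 19.4 ± 5.68 CPM (SD, n = 2), a log2 fold change of -1.23 (adjusted p = 0.0166, edgeR quasi-likelihood, Benjamini-Hochberg). Without PC9OR replicate 2 it was -0.96 and under the limit. *CDKN1C*, which encodes p57, was at 0.0427 and 0 CPM in PC9, or under 3 counts, and at 1.40 and 0.594 CPM in PC9OR, and it was called higher, but not without PC9OR replicate 1. Of the cyclins, kinases and ubiquitin ligase subunits that act with p27, 10 were tested and 0 were called, with a median of 0.35 and values between -0.70 and 0.68.

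*GPRC5B*, the paralogue of *GPRC5A*, fell from 57.8 ± 11.1 to 12.8 ± 2.11 CPM (log2 fold change -2.18, adjusted p = 0.00545, edgeR quasi-likelihood, Benjamini-Hochberg). *FOXJ3* and *DUSP8*, paralogues of *FOXJ2* and *DUSP16*, fell with log2 fold changes of -1.27 and -1.98, and these 2 listed genes were lower too. Other pairs differed. *CLSTN1* (-1.06, beside 0.14 for the listed *CLSTN3*) and *PLBD2* (-1.90) also fell. *EMP3* (1.90, beside 0.01 for the listed *EMP1*) rose from under 0.3 CPM. *FOXJ1*, also a paralogue of *FOXJ2*, was called higher from at most 0.0853 CPM in PC9. *GABARAP* (0.22), *GABARAPL2* (0.37), *MAGOH* (0.12), *LRP5* (-0.46), *IGF2R* (-0.75) and *YBX1* (-0.59) were not called. With length offsets *FOXJ3*, *CLSTN1* and *EMP3* were not called either, and *GABARAP*, *MAGOH* and *IGF2R* changed sign, to -0.21, -0.35 and 0.26. With each library left out in turn, *GPRC5B*, *FOXJ3* and *PLBD2* kept their calls. *CLSTN1* (-0.61) lost it without PC9 replicate 1, *EMP3* (1.61) likewise, and *FOXJ1* (2.76) without PC9 replicate 2. Without PC9OR replicate 1 or 2 the calls of *DUSP8*, *CLSTN1*, *EMP3* and *FOXJ1* were lost, with log2 fold changes of -2.01 and -1.94 for *DUSP8*.

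Among complexes, the 7 genes of the BORCS5 partners in BORC, all tested, gave 3 higher calls, beside 6.13% of all tested genes, and a median log2 fold change of 0.97, and *BORCS5* itself was at -1.12. Those that rose were *BORCS6* (1.29), *BLOC1S1* (1.24) and *SNAPIN* (1.04), with adjusted p of 0.0216, 0.0139 and 0.0252 (edgeR quasi-likelihood, Benjamini-Hochberg), and with length offsets only *BORCS6* of the 3 was called. *BLOC1S1* was called with each library left out, *BORCS6* not without PC9OR replicate 1 (1.29) or 2 (1.31), and *SNAPIN* not without PC9 replicate 1 (0.77) or PC9OR replicate 1 (0.95). Of 10 genes of Polycomb repressive complex 1, the complex of PHC1, 2 fell, beside 11.6% of all tested genes. They were *PCGF2* (-2.27) and *SCMH1* (-1.19), and *SCMH1* was not called without PC9 replicate 1 (-0.93) or PC9OR replicate 1 (-1.15). Of 11 genes around LRP6, 1 was called higher, beside 6.13% of all tested genes, and 0 lower. It was *RNF43*, a ubiquitin ligase of Wnt receptors, which went from 0.171 and 0.0693 CPM in PC9 to 1.09 and 1.13 CPM in PC9OR. It was not called without PC9OR replicate 1 (3.22) or 2 (3.18). Of 7 genes of mannose 6-phosphate sorting, 1 was called, *GNPTAB*, which fell (-1.06), beside 11.6% of all tested genes. The call was lost with length offsets, at -0.69. The exon junction complex (4 tested), peroxisomal import (9) and SETDB1 (2) lists gave 0 calls, with medians of 0.30, 0.30 and -0.23.

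**Figure D4:**
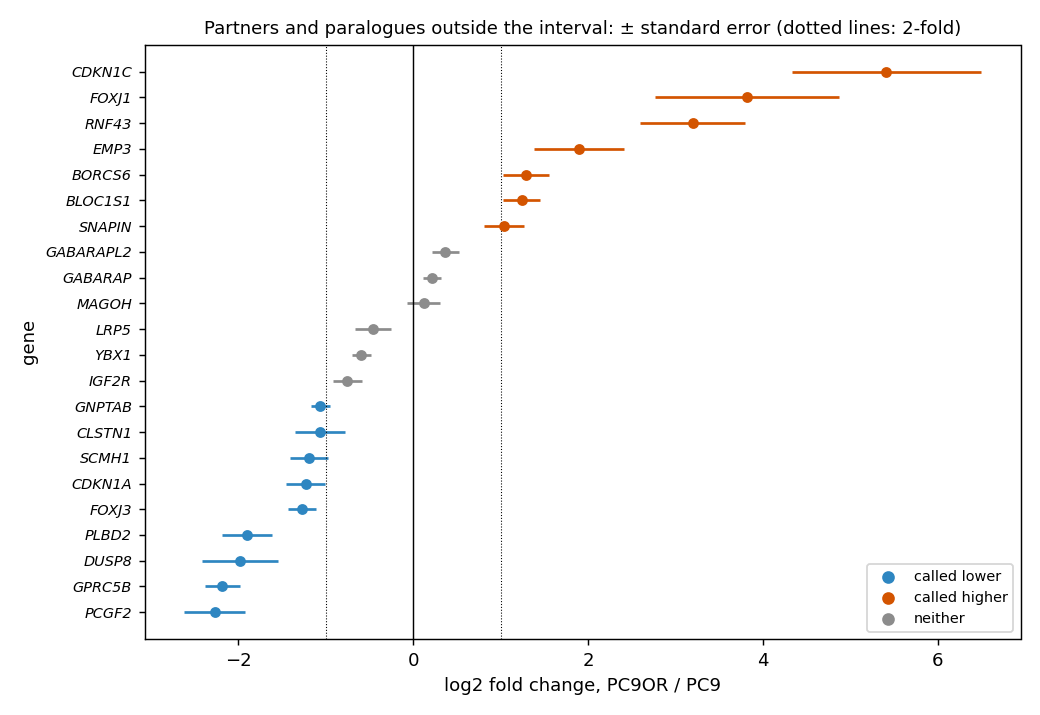
Log2 fold change (PC9OR over PC9) with its standard error for called paralogues and partners of the listed genes and for 6 uncalled ones (blue, lower; orange, higher; grey, neither); dotted lines mark 2-fold change. *CDKN1A* lies at -1.23, while *CDKN1C* and *FOXJ1* had under 3 counts in each PC9 library, so that their plotted values depend on the prior count of the fit.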

How the data were processed

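RNA of 2 PC9 and 2 PC9OR libraries (TruSeq Stranded kit) was sequenced. The authors deposited, for each gene with reads, an expected count, which is an estimated count that is not normalized, a length for its transcripts, and FPKM. The submitters' processing notes name Bowtie2 2.2.5, RSEM 1.2.12 and GRCh37, and the study's methods name SOAP for read filtering. Samples were grouped by their labels. The study's DEGseq was not installed, and its threshold of an adjusted p under 0.001 was replaced by 0.05, because in an earlier fit of these data by edgeR, without a replicate block, no gene was past it.

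The deposited expected counts were rounded and entered edgeR 4.0.16 under R 4.3.3 (TMM, filterByExpr, glmQLFit, glmQLFTest, Benjamini-Hochberg adjustment over 13148 genes). The deposited FPKM values were used to compare genes and, on the log2(FPKM + 1) and log2(FPKM + 0.1) scales, in limma 3.58.1. Entrez identifiers gave a symbol for 99.66% and a GENCODE position on GRCh37 for 96.46% of the genes. The scripts were tested on simulated data.

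The members, the lists of partners, paralogues and markers, and the rules were chosen with earlier results of these data known. All 43 listed genes could be named. Of other genes of the arm, the 3 on each side of each end of the run were to be named, and of partners and paralogues those called, plus *CDKN1A*, *CDKN1C*, *LRP5*, *GABARAP*, *GABARAPL2*, *MAGOH*, *YBX1* and *IGF2R*. Any further gene, at the ends of the interval or of another run or window, was chosen after its values were seen.

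Alternatives were DESeq2 1.42.0 (size factors or Wald test), library totals, other filters, length offsets (mgcv 1.9.3), the replicate number as a block, each library left out, a step fit by least squares or on genes of at least 1 FPKM, and, chosen after seeing the data, a step fit without *TAS2R* genes.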

Additional observations from a re-analysis of the deposited data

How the results depend on the processing

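With 2 libraries a line, and with 3 counts set as the floor, changes of genes under about 1 CPM were poorly measured. Of 764 values for 55 single genes under the alternatives, 658 kept their direction and their side of the limits, 67 kept the direction but were no longer called, 9 became called and 30 changed sign, none of them called before or after. With length offsets, without and with the replicate block, these were *LRP6* (0.19 and 0.19), *GABARAPL1* (-0.11 and -0.11), *MANSC1* (-0.03 and -0.02), *GABARAP* (-0.21 and -0.20), *IGF2R* (0.26 and 0.26) and *MAGOH* (-0.35 and -0.35). With limma *GABARAPL1* and *MANSC1* were at -0.01 for either pseudocount. With a library left out, the values that changed sign ran from -0.02 to 0.29 for *CLSTN3*, -0.08 to 0.27 for *NECAP1*, -0.34 to 0.19 for *FAM90A1*, -0.05 to 0.58 for *CLEC2D*, -0.14 to 0.16 for *GABARAPL1*, -0.20 to 0.22 for *MANSC1*, -0.09 to 0.15 for *FAM234B*, -0.30 to 0.37 for *EMP1* and -0.10 to 0.36 for *MAGOH*. Where a count moved, the cause was not tested unless the alternative itself used fewer samples. With length offsets, and with length offsets and the replicate block together, 2 listed genes were higher, their median was 0.32, and the run held 21 genes. With log2(FPKM + 1), 0 listed genes were higher, 5 partners or paralogues were lower and 2 higher. With at least 10 counts in every library 3 partners or paralogues were higher, and with no filter the median of the listed genes was 0.02. The run held 5 genes by least squares and, in the alternative chosen after seeing the data, 5 without the *TAS2R* genes. With each library left out, the listed genes called lower ranged from 3 to 9 and higher from 1 to 2, their median from 0.01 to 0.15, the run from 12 to 21 genes, the partners or paralogues lower from 6 to 11 and higher from 1 to 12. No source says that replicate numbers mark a shared batch, and deviations of same-numbered libraries had a correlation of 0.0553. Blocking on replicate number, the paired fit gave 6 listed genes lower and 1 higher, a median of 0.11, a run of 12 genes, and 9 partners or paralogues lower and 7 higher.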
